A study of Arabidopsis thaliana with 6 samples.

Results

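Cultures of the embryogenic accession Col-0 and of the non-embryogenic mutant tanmei were compared after 5 d on auxin medium, by the transcript levels of 1880 transcription factor (TF) genes. A gene entered the comparison when its mean Ct was below 35 in at least 1 of the 2 cultures, which left 1655 of 1880. Ct is the PCR cycle at which the product crosses a fixed threshold, so that a Ct lower by 1 cycle stands for a 2-fold higher transcript level. An empty Ct, meaning that no product was recorded, was set to 40. The difference between the genotypes was taken as the Ct of tanmei minus the Ct of Col-0, less the median of that difference over the genes of the same plate, taken as 1 of 5 equal blocks of rows. It is on a log2 scale, and a positive value means a higher level in Col-0.

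Both cultures were started from immature zygotic embryos at the late cotyledonary stage, isolated 10 to 12 days after pollination, and kept on E5 medium with 5 µM 2,4-D, a synthetic auxin. Col-0 is the wild type, described as highly embryogenic. The mutant carries the tan1-2 allele of TANMEI, also named EMB2757, which encodes a WD-repeat protein needed in zygotic embryos. TANMEI encodes no TF and its own transcript was not analysed here. Explants at 0 d and cultures at 10 d were measured in both genotypes in the same way. For each gene and group there was 1 deposited mean over 3 replicates. Without the single replicates, no difference below could be set against a replicate error and none was tested. The RNA came from whole explants and cultures, so that fewer cells of a type and less RNA per cell cannot be told apart.

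In somatic embryogenesis, cells of an explant form embryos without fertilisation, here on auxin. In zygotic embryos, identity and maturation depend on a small network of B3-domain TFs (ABI3, FUS3, LEC2) together with the CCAAT-box factor LEC1, while the VAL factors, also of the B3 type, close this programme at germination. The AP2/ERF class ranges from embryo and meristem regulators such as BABY BOOM and the PLETHORA genes to factors of the ethylene, jasmonate, cold, drought and wound responses. The families AP2/EREBP and ABI3/VP1, which hold these genes, had 159 rows, all on the first plate, of which 152 entered the comparison. The 7 left out, with no Ct below 35 in either culture, were SMZ, CRF9, ERF95, SHN3, HRD, RAV3L and ERF087.

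Single genes are named from these 2 families alone. The gene codes in the deposited matrix and in a level table that accompanies the publication could be set side by side for 73 of the 159 codes. For 58 of them the levels were within 1 cycle in all 6 groups. The other 15 differed by more than 1 cycle in some group, 6 of them with a Ct of 35 or more or an empty Ct in a group, and their values may belong to other genes: ERF109, AT5G21960, AT2G22200, CRF3, LEP, ABR1, ERF114, ERF107, PUCHI, CBF4, TOE3, DEAR2, ERF025, TOE2 and ERF087. Where one of these 15 is named below, its code is called doubtful, and a code with matching levels is called matched. The remaining 86 codes did not occur in that table and are called unchecked.

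The genotypes differed by at least 2-fold in 730 genes (44.1%) at 5 d, with 357 (21.6%) higher in Col-0 and 373 (22.5%) higher in tanmei. At 10-fold the balance was towards Col-0, with 84 genes (5.08%) against 55 (3.32%), or 139 (8.4%) in all. The SD of the difference over the 1655 genes was 2.02, and the quartiles were -0.87 and 0.82. Median Ct values of the cultures were close, at 26.5 for Col-0 and 26.6 for tanmei.

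Large differences favoured Col-0 most among the genes with the strongest expression. Where the lower of the 2 Ct values was below 25 (648 genes), 27 genes passed 10-fold towards Col-0 and 6 towards tanmei. Between 25 and 30 (684 genes) the counts were 26 and 24, and between 30 and 35 (323 genes) they were 31 and 25. The share of genes past 2-fold went from 33.5% over 45.5% to 62.5% as expression became weaker, so that folds past 2 were most common among weakly expressed genes. Of the 1655 genes, 68 had a Ct below 35 only in the Col-0 culture and 62 only in the tanmei culture. At the limit of 35, the gene just inside had a lower Ct of 34.9991 and a difference of 0.27, and the row just outside had a lower Ct of 35.0001 and a difference of -5.14.

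**Figure D1:**
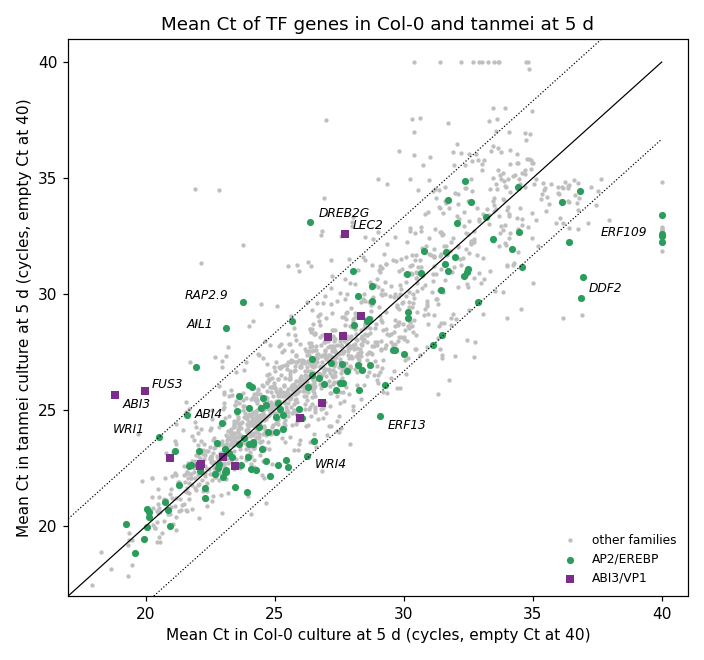
Mean Ct of each of the 1655 genes in Col-0 (x axis, cycles) and in tanmei (y axis, cycles) at 5 d, each point 1 gene, with equal Ct as the solid line and 10-fold differences before plate centring as dotted lines. ABI3, FUS3 and LEC2 lie far above the line, with a Ct lower in Col-0, whereas most AP2/EREBP genes far below it have a Ct above 35 in Col-0.

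Within the 152 AP2/EREBP and ABI3/VP1 genes, 37 passed 2-fold towards Col-0 (24.3%, against 21.6% of all genes). Towards tanmei, 42 passed it (27.6%, against 22.5%), and the median difference was -0.08. At 10-fold, 10 were higher in Col-0 and 8 in tanmei, beside 5.08% and 3.32% of all genes. These counts became 7 and 14 with a single median over all plates and 7 and 10 without centring. With a Ct below 35 required in both cultures, the same 10-fold counts were 10 and 1, so that 7 of the 8 genes higher in tanmei rested on a Col-0 Ct of 35 or more. The split also depends on the centring of the first plate, whose uncentred median difference was -0.30. With a single median over all plates, 23 genes passed 2-fold towards Col-0 and 60 towards tanmei (27.7% of the calls towards Col-0 in place of 46.8%).

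The embryo regulators of the B3 class had the largest median difference of the 21 groups of AP2/EREBP and ABI3/VP1 genes. ABI3 (AT3G24650), an activator of seed maturation and abscisic acid responses, had a Ct of 18.8 in Col-0 and of 25.7 in tanmei. FUS3 (AT3G26790), which acts in maturation and against leaf traits in cotyledons, had a Ct of 20.0 in Col-0 and 25.8 in tanmei. LEC2 (AT1G28300), whose ectopic expression can start somatic embryos, was at 27.7 in Col-0 and 32.6 in tanmei. All 3 listed activators were thus far higher in Col-0, by 7.17 for ABI3, 6.18 for FUS3 and 5.15 for LEC2 on the log2 scale. These are folds of 144, 72.7 and 35.5. The code of ABI3 was matched and those of FUS3 and LEC2 were unchecked.

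The explants stood closer together. At 0 d the differences were 2.35 for ABI3, -0.65 for FUS3 and -0.86 for LEC2, so the latter pair had the lower Ct in tanmei. Between 0 d and 5 d the Ct of FUS3 stayed near 20 in Col-0 (20.1 and 20.0) and went from 18.3 to 25.8 in tanmei. LEC2 went from 28.9 to 27.7 in Col-0 and from 26.9 to 32.6 in tanmei. In both genes the tanmei culture had a higher Ct than its explants and the Col-0 culture did not. For ABI3 the Ct values were 18.1 and 18.8 in Col-0 and 19.3 and 25.7 in tanmei. These Ct values are not centred. Less the plate median, the log2 change from 0 d to 5 d in Col-0 was -0.67 for FUS3, 0.32 for LEC2 and -1.52 for ABI3. In tanmei it was -7.13, -5.31 and -5.96, where a negative value means a lower level at 5 d. The differences at 10 d were 10.70 for ABI3, 6.39 for FUS3 and 5.57 for LEC2.

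Other B3 genes stood closer together. The 3 VAL genes, repressors of the seed programme, had a median difference of 1.04 (0.55 with a single median over all plates). Of the 3, 2 passed 2-fold towards Col-0 (66.7%, against 21.6% of all genes). VAL1 had a Ct of 20.9 in Col-0 and 22.9 in tanmei, a 4.92-fold higher level in Col-0. VAL3 differed by 1.04 and VAL2 by 0.79. None of the VAL genes was lower in Col-0. The 7 NGATHA and NGATHA-like genes, which act in leaf and style growth, had a median of 0.29, which was -0.20 with a single median over all plates, with NGAL2 (1.39) past 2-fold in Col-0 and NGA3 (-1.22) past it in tanmei. Among these 10 codes, that of NGA1 was matched and the rest were unchecked. In ABI3/VP1 as a whole, all 13 genes entered the comparison, and the median was 0.83. Towards Col-0, 6 passed 2-fold (46.2%, against 21.6% of all genes), with ABI3, FUS3 and LEC2 among them. Towards tanmei, 1 did (7.69%, against 22.5%). This split depends on the centring. With a single median over all plates the family's median was 0.34, and VAL3 (0.55) and NGAL2 (0.91) were under 2-fold. NGA2 (-1.48) and NGAL1 (-1.06) then passed 2-fold towards tanmei.

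ABI4 and WRI1, AP2/EREBP genes of the maturing seed, were also higher in Col-0. ABI4 (AT2G40220), which acts in abscisic acid and sugar responses, had a Ct of 21.6 in Col-0 and 24.8 in tanmei, a difference of 3.50 or 11.3-fold. WRI1 (AT3G54320), the activator of fatty acid synthesis for seed oil, was at 20.5 in Col-0 and 23.8 in tanmei, a difference of 3.61 or 12.2-fold. In explants the differences were -0.84 for ABI4 and 1.57 for WRI1. The other WRINKLED genes did not share one direction. WRI3 and WRI4, which act in lipid and cutin synthesis outside the seed, had differences of -2.31 and -2.94, towards tanmei, with matched codes, and WRI2 had 1.48. The codes of ABI4, WRI1 and WRI2 were unchecked. WRI4 had a Ct of 26.3 in Col-0 and 23.0 in tanmei. WRI3 was at 30.02 and 27.4. SHN1 and SHN2, SHINE factors of the cuticle, were also higher in tanmei (-1.88 and -1.18) from weak signals, with Ct values between 31.0 and 36.1. With every Ct above 35 set to 35, SHN1 was at -0.74, under 2-fold. SHN3 had no Ct below 35 in either culture. The code of SHN2 was matched and that of SHN1 was unchecked.

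**Figure D2:**
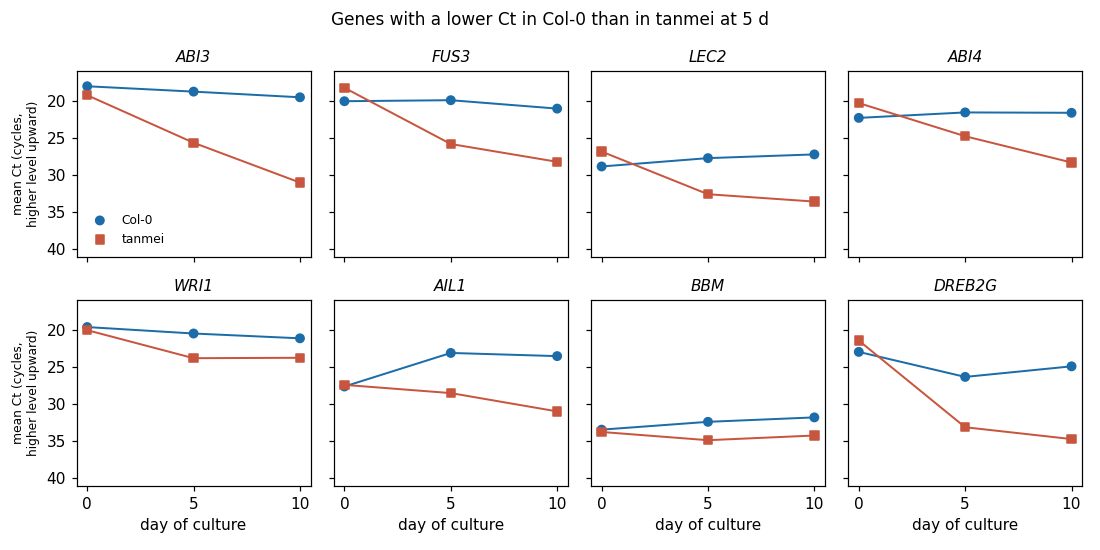
Mean Ct (y axis, cycles, inverted so that a higher level is upward) at 0, 5 and 10 d in Col-0 (circles) and tanmei (squares) for 8 genes with higher levels in Col-0 at 5 d, 1 mean of replicates per point. In ABI3, FUS3, LEC2 and ABI4 the lines of the 2 genotypes, drawn without centring, lie closer together at 0 d than at 5 d. At 5 d the tanmei line is below its start.

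The PLETHORA and AINTEGUMENTA group, AP2-type regulators of meristems and growth, was divided. Of its 8 genes, 2 passed 2-fold towards Col-0 (25%, against 21.6% of all genes) and 1 towards tanmei (12.5%, against 22.5%). The group's median was 0.56. AIL1 (AT1G72570) had a Ct of 23.1 in Col-0 and 28.5 in tanmei, a difference of 5.69 or 51.7-fold. In explants its Ct had been 27.6 in Col-0 and 27.4 in tanmei, so that here it was the Col-0 culture that stood apart from its explants, by a lower Ct. BBM (AT5G17430), whose overexpression yields somatic embryos, was weakly expressed at 32.4 in Col-0 and 34.9 in tanmei, and its difference of 2.77 comes from Ct values close to the limit of 35. PLT7, a gene of shoot and lateral root meristems, went the other way, at 31.5 in Col-0 and 28.3 in tanmei (-2.95).

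The root stem cell genes PLT1 and PLT2 were within 1 cycle in the 2 cultures. PLT2 had a Ct of 22.8 in Col-0 and 22.7 in tanmei, and PLT1 was at 21.3 and 21.8, with differences of 0.15 and 0.79. Both genotypes had higher PLT1 and PLT2 levels at 5 d than in explants, where the Ct of PLT1 had been 25.7 in Col-0 and 24.7 in tanmei. PLT3 (0.81), PLT5 (-0.13) and ANT (0.34) also stayed under 2-fold. The codes of PLT1 and PLT2 were matched and the others of this group were unchecked.

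The DREB2 group of dehydration-response factors held the gene with the second largest difference towards Col-0 in both families. DREB2G (AT5G18450) had a Ct of 26.4 in Col-0 and 33.1 in tanmei, a difference of 7.06 or 134-fold. Its explant values were 23.0 and 21.5, so its level at 5 d was below that of the explants in both genotypes, and more so in tanmei. Within this group 4 of 8 genes passed 2-fold towards Col-0, against 21.6% of all genes, and 1 passed it towards tanmei, against 22.5%. The group's median was 0.73, and 0.24 with a single median over all plates, where DREB2A was under 2-fold (0.59). DREB2C (2.31), DREB2F (1.98) and DREB2A (1.08) had smaller differences towards Col-0. DREB2A and DREB2C encode activators of heat and drought genes. DREB2H had a Ct of 40 in Col-0 in all 3 groups and of 33.4 in tanmei at 5 d, and its difference of -6.28 rests on that deposited Ct of 40. The codes of DREB2A, DREB2C and DREB2F were matched, those of DREB2G and DREB2H unchecked.

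RAP2.9 (AT4G06746), a member of the DEAR group, had a Ct of 23.8 in Col-0 and 29.7 in tanmei, a difference of 6.20 or 73.3-fold. The same difference was 1.36 at 0 d and 0.89 at 10 d, where Col-0 was at 25.6 and tanmei at 27.2. The other 5 genes of the DEAR group, relatives of the CBF factors, lay between -0.21 and 0.88. ERF023 (AT1G01250) was at 22.0 in Col-0 and 26.9 in tanmei (5.23, 37.4-fold), and its difference at 10 d was 6.30. The codes of RAP2.9, ERF023 and ERF022 were matched. ERF022, a close relative of ERF023, whose explants had differed by 7.13 (Ct 24.1 in Col-0 and 30.1 in tanmei), differed by only 0.47 at 5 d, when Col-0 was at 31.6 and tanmei at 31.8. Here the Col-0 culture had a far higher Ct than its explants. ERF027 of the same group, with an unchecked code, had a difference of -2.93, with a Ct of 32.9 in Col-0 and 29.7 in tanmei.

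Cold-response factors of the CBF/DREB1 group were weakly expressed in both cultures, except CBF4, whose code is doubtful. CBF1, CBF2 and CBF3, activators of cold acclimation, had Ct values from 30.8 to 33.5, and differed by -0.76, -1.25 and 1.37. DDF1, known from salt and gibberellin responses, and its relative DDF2 differed by -0.96 and -5.91, with unchecked codes. DDF2 had a Ct of 36.9 in Col-0 and 30.7 in tanmei. In explants it had been at 30.3 and 29.8, so that tanmei stood within 1 cycle of its explants and Col-0 did not. The group of TINY, a factor that links drought and brassinosteroid responses, had 2 of 8 genes past 2-fold in each direction. That share of 25% stands beside 21.6% of all genes towards Col-0 and 22.5% towards tanmei. ERF036 (2.35) and TINY2 (-2.11) were the extremes. The codes of CBF1, CBF2, CBF3 and ERF036 were matched and that of TINY2 was unchecked.

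**Figure D3:**
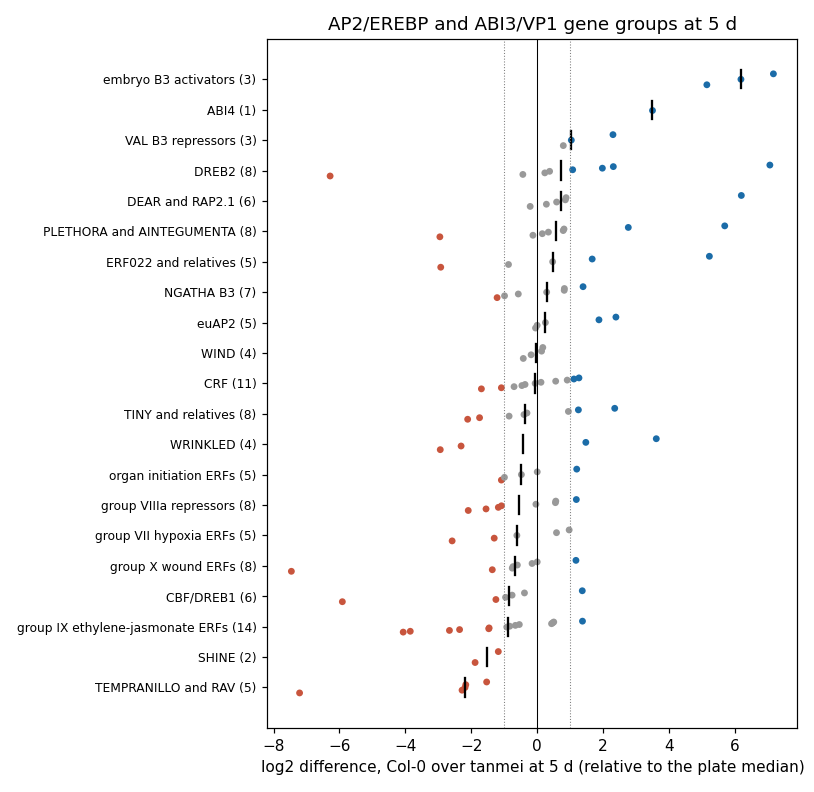
Log2 difference between Col-0 and tanmei at 5 d (x axis) for each gene of 21 groups of AP2/EREBP and ABI3/VP1 genes (y axis, number of genes in parentheses), each point 1 gene and each bar the group's median. The embryo B3 activators lie between 5.15 and 7.17, the TEMPRANILLO and RAV genes between -7.21 and -1.53, and the WIND genes between -0.42 and 0.17.

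The TEMPRANILLO and RAV genes, which carry both an AP2 and a B3 domain and include repressors of flowering and of growth, had the lowest median of the 21 groups. All 5 genes with a Ct below 35 in a culture passed 2-fold towards tanmei, against 22.5% of all genes, with a median of -2.19. RAV1 (AT1G13260), a growth repressor, had a Ct of 25.4 in Col-0 and 22.8 in tanmei. TEM2 (AT1G68840) was at 25.1 and 22.6, EDF3 (AT3G25730) at 23.9 and 21.5, and TEM1 (AT1G25560) at 24.3 and 22.4. Their differences were -2.28, -2.19, -2.17 and -1.53, all from strong signals and all with matched codes. RAV3 was the exception in level, with a deposited Ct of 40 in Col-0 and at 32.5 in tanmei, and its code was unchecked. RAV3L did not reach 35 in either culture. With a single median over all plates the group's median was -2.67.

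These 4 genes also had lower Ct values in tanmei explants, with differences at 0 d of -2.92 for RAV1, -0.82 for TEM2, -6.30 for EDF3 and -2.38 for TEM1. In Col-0, EDF3 had a Ct of 30.8 at 0 d, 23.9 at 5 d and 21.8 at 10 d. The distance between the genotypes was smaller at 10 d than at 0 d for 3 of these 4 genes, RAV1 (-1.88), EDF3 (-1.26) and TEM1 (-0.42), and TEM2 stood at -1.63.

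Ethylene and jasmonate response factors of ERF group IX, which switch on defence genes, had 6 of 14 genes past 2-fold towards tanmei (42.9%, against 22.5% of all genes) and 1 (ERF2, 1.37) towards Col-0 (7.14%, against 21.6%). The median was -0.88, and whether the group differs from all genes was not tested. ERF13 (AT2G44840) had a Ct of 29.1 in Col-0 and 24.7 in tanmei, a difference of -4.07 or 16.7-fold, and its code was matched. ERF104, a target of defence signalling kinases, was at 25.5 and 22.6 (-2.66), and ERF1A was at 24.8 and 22.2 (-2.36). At 10 d the difference of ERF104 was 0.64 and that of ERF1A -2.65. ERF6 (-1.47) and ERF1 (-1.46), the latter a node of ethylene and jasmonate signals, were also past 2-fold. ERF14 had a difference of -3.85 with a Ct of 36.4 in Col-0. In ERF13 and ERF104 the explants of both genotypes had more transcript than the cultures, and Col-0 was the lower of the cultures. ORA59, ERF5 and ERF98 stayed under 2-fold at 5 d. ERF1, ERF98 and ORA59 had matched codes, and those of ERF2, ERF5, ERF6, ERF14, ERF104 and ERF1A were unchecked.

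The WIND genes, which promote callus at wounds, were close to equal, with 4 genes between -0.42 and 0.17 and Ct values of 18.9 to 27.2. WIND1, with a matched code, was at 20.0 in Col-0 and 19.5 in tanmei. Of the 8 group X genes, several of which respond to wounding and regeneration, 1 passed 2-fold towards Col-0 (RAP2.6L, 1.18) and 2 towards tanmei. These shares are 12.5% and 25%, against 21.6% and 22.5% of all genes. RAP2.6 had a Ct of 28.4 in Col-0 and 26.7 in tanmei (-1.36), against 19.6 and 19.9 in explants. ERF115, a factor of stem cell replenishment, had a difference of 0.00, at 22.8 and 22.5, although Col-0 explants had given a Ct of 40 and tanmei explants 31.8. ERF109, at 40 in Col-0 and 32.2 in tanmei (-7.46), has a doubtful code. RAP2.6, RAP2.6L and ERF115 had matched codes, and those of WIND2, WIND3 and WIND4 were unchecked.

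In the remaining groups the differences were small or mixed. Group VIIIa repressors, which carry an EAR motif, had 4 of 8 genes past 2-fold towards tanmei and 1 towards Col-0, led by ERF9 (-2.09, Ct 36.9 in Col-0) and ERF8 (-1.55, matched code). Of the 5 group VII factors of the low-oxygen response, HRE1 (-2.58, Ct 26.5 and 23.7) and HRE2 (-1.30) passed 2-fold towards tanmei. That is 40%, against 22.5% of all genes. RAP2.2 (-0.62), RAP2.3 (0.97) and RAP2.12 (0.59) were not past 2-fold. In this group the code of RAP2.3 was matched and the rest were unchecked. The shares of these groups were not tested. The cytokinin response factors had 2 of 11 in each direction (18.2%, against 21.6% of all genes towards Col-0 and 22.5% towards tanmei). Their median was -0.06. The organ initiation genes DRN, which acts in cotyledon founding, and DRNL differed by -0.99 (unchecked code) and 0.00 (matched code). LEP (-1.09) and PUCHI (-0.48) have doubtful codes. The AP2 gene itself, a floral homeotic factor, differed by 0.25 and TOE1, a flowering repressor, by -0.05, both with matched codes, while SNZ, also of this group and also matched, had a difference of 1.87.

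**Figure D4:**
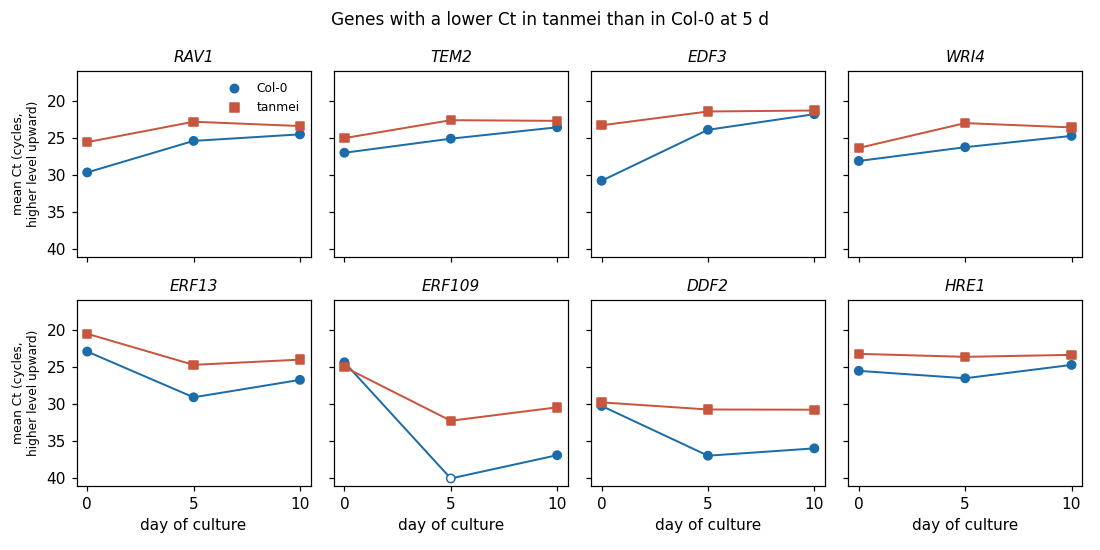
Mean Ct (y axis, cycles, inverted so that a higher level is upward) at 0, 5 and 10 d in Col-0 (circles) and tanmei (squares) for 8 genes with higher levels in tanmei at 5 d, 1 mean of replicates per point and an open symbol for a Ct of 40. RAV1, TEM2, EDF3 and WRI4 have lower Ct values at 5 d than at 0 d in both genotypes, whereas DDF2 and ERF109 lie close together at 0 d and have a far higher Ct in Col-0 at 5 d, and the code of ERF109 is doubtful.

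Outside these groups, 26 genes of both families were split evenly, with 8 (30.8%) past 2-fold in each direction. Of all genes, 21.6% passed it towards Col-0 and 22.5% towards tanmei. Towards Col-0 the largest were AT1G80580 (3.46, Ct 25.7 and 28.9, matched code), RAP2.11 (3.27, Ct 28.02 and 31.0), a factor of the low-potassium response, and ESE2 (2.63, Ct 31.7 and 34.1). TOE2 (2.39) also belongs to the 15 largest towards Col-0, but its code is doubtful. Towards tanmei AT4G16750 (-3.10, Ct 34.6 and 31.2), AT1G71520 (-3.04, Ct 31.1 and 27.8) and AT2G22200 (-2.91, doubtful code) were the largest with a Ct below 35 in both cultures. AT2G20350 (-7.09) and AT5G21960 (-6.76), singled out after their values were seen, had a Ct of 40 and of 36.9 in Col-0, and the code of AT5G21960 is doubtful. The codes of RAP2.11, ESE2, AT4G16750, AT1G71520 and AT2G20350 were unchecked.

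Other families are given by their label and counts only, for those labels that held for at least 80% of 5 or more rows whose profile could be found again in the level table. This choice of families was made after the labels had been checked. Outside the 2 named families, 294 rows were found again, 170 of them under the same family and 0 under the same gene code. Some labels rest on few rows, such as 5 of 6 for DOF and 8 of 10 for Aux/IAA. Some rows counted below may thus belong to other families. MADS genes, which include regulators of flowering and genes expressed in seeds, had 26 of 68 genes past 2-fold towards Col-0 (38.2%, against 21.6% of all genes) and 15 towards tanmei (22.1%, against 22.5%), with 7 and 3 at 10-fold. Of all genes, 5.08% passed 10-fold towards Col-0 and 3.32% towards tanmei. The MADS median was 0.33. Aux/IAA genes, repressors of auxin responses and themselves induced by auxin, had 9 of 29 past 2-fold towards tanmei (31.0%, against 22.5% of all genes). Towards Col-0, 4 Aux/IAA genes passed it (13.8%, against 21.6%). The Aux/IAA median of -0.59 became -1.07 with a single median over all plates and -0.88 without centring. These shares were not tested.

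The bHLH family had 32 of 141 genes past 2-fold towards Col-0 (22.7%) and 40 towards tanmei (28.4%), with 9 and 11 at 10-fold. Homeobox genes had 16 and 19 of 87 (18.4% and 21.8%). WRKY genes, mostly defence factors, had 11 and 12 of 68 (16.2% and 17.6%), and DOF genes 6 and 6 of 32 (18.8% each). In the LOB-domain family the counts were 6 and 8 of 26 (23.1% and 30.8%). Its median of 0.06 became -0.42 with a single median over all plates. Over all genes the shares were 21.6% towards Col-0 and 22.5% towards tanmei, and 5.08% and 3.32% at 10-fold. No WRKY gene and no DOF gene was 10-fold higher in Col-0, while 2 of the 68 WRKY genes were 10-fold higher in tanmei. These small counts were not tested.

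The genotype difference at 5 d was nearer to that at 10 d than to that of the explants. Across the 1655 genes Pearson's r was 0.62 (Spearman's rho 0.59) between 5 d and 10 d and 0.37 (rho 0.34) between 5 d and 0 d. Within AP2/EREBP and ABI3/VP1 (152 genes) r was 0.82 (rho 0.68) with 10 d and 0.34 (rho 0.43) with 0 d. The times share no sample, but they share primer pairs and the same blocks of rows, and genes are not independent replicates. The 3 differences had a like spread, with an SD of 2.098 at 0 d, 2.02 at 5 d and 2.06 at 10 d over the same genes.

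**Figure D5:**
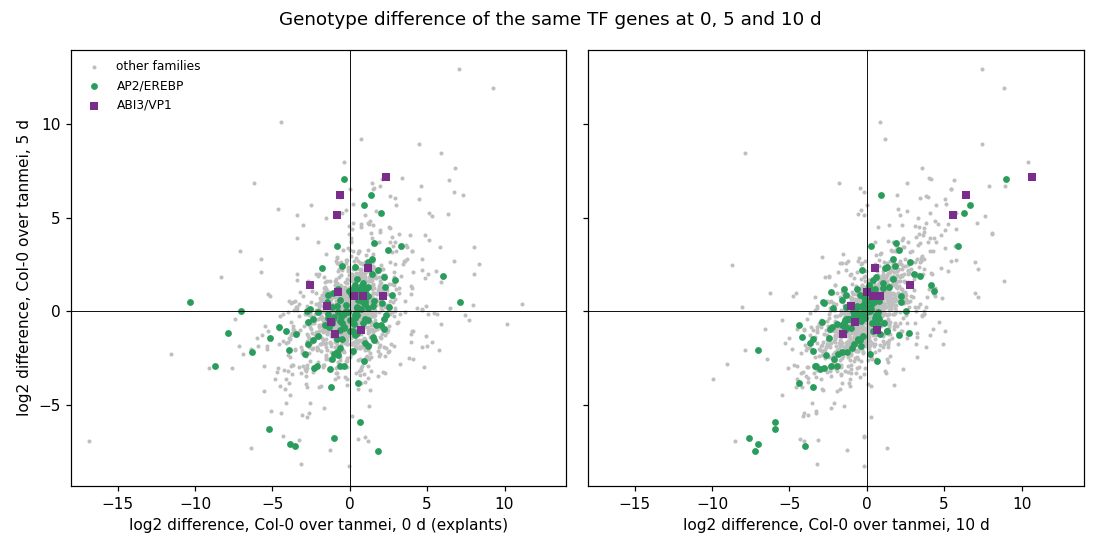
Log2 difference between Col-0 and tanmei at 5 d (y axis) against the same difference at 0 d (left, x axis) and at 10 d (right, x axis), each point 1 of 1655 genes. ABI3, FUS3 and LEC2, the 3 highest squares, lie at 2.35, -0.65 and -0.86 at 0 d and at 10.70, 6.39 and 5.57 at 10 d.

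Of the 84 genes past 10-fold towards Col-0 at 5 d, 53 (63.1%) passed 2-fold in that direction in explants and 71 (84.5%) did so at 10 d. Of the 55 past 10-fold towards tanmei, 31 (56.4%) passed 2-fold in that direction in explants and 44 (80%) at 10 d. Among all 1655 genes, 369 passed 2-fold towards Col-0 in explants and 388 at 10 d. Towards tanmei, the counts over all genes were 369 and 382. The direction at 10 d was opposite by 2-fold or more for 2 of the 84 genes and 2 of the 55. In explants it was opposite for 9 of the 84 and 7 of the 55. Of all 357 genes past 2-fold towards Col-0 at 5 d, 36 were opposite in explants and 21 at 10 d. Of the 373 towards tanmei, 69 and 40 were. Set beside the change from 0 d, which uses the same cultures, the 84 genes had a median change of 0.04 in Col-0 and of -3.20 in tanmei. The 55 genes had a median change of -0.80 in Col-0 and of 2.095 in tanmei.

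The 10 AP2/EREBP and ABI3/VP1 genes past 10-fold towards Col-0 had a median change from 0 d of -1.10 in Col-0 and -5.64 in tanmei. For the 8 genes past 10-fold towards tanmei the medians were -5.79 in Col-0 and -0.78 in tanmei. The genes were chosen by their value at 5 d, which also enters these changes, so the medians only describe them.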

How the data were processed

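Transcript levels of TF genes were measured by quantitative RT-PCR with SYBR Green in explants and cultures of Col-0 and tanmei. The authors deposited 1 mean Ct per gene and group, the mean of those of the 3 replicates in which a product was recorded. These deposited Ct values are in cycles and are not normalized. The deposited fold changes hold the authors' own comparisons and were not used. Sequencing depth does not apply to PCR. How precise a mean is remains unknown, since single replicates were not analysed here.

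The matrix was divided in order into 5 plates of equal size. The difference Ct tanmei minus Ct Col-0 was centred on the median of each plate in place of the reference gene. Rows with a Ct below 35 in at least 1 culture were kept and an empty Ct was set to 40. Counts are given at 2-fold and 10-fold with no test, because there is 1 mean per group. The code was checked on simulated data.

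Named genes are AP2/EREBP or ABI3/VP1 rows: the 15 with the largest difference in each direction with a Ct below 35 in both cultures, rows with a Ct below 35 in 1 culture and an empty Ct in the other (none were found), and the members of 21 gene groups. Symbols were set by hand from the gene codes, all 159 of which were found in the RefSeq annotation. The comparison, the groups and the named genes were chosen with earlier results of these data known. Alternatives varied the centring, the filter and the treatment of empty Ct, and 1 that also leaves out a Ct of 40 was chosen after the values were seen. Python 3.11.15, numpy 2.4.6, pandas 2.3.3, scipy 1.17.1 and matplotlib 3.10.9 were used.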

Additional observations from a re-analysis of the deposited data

Results flagged for a closer look

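For 12 AP2/EREBP and ABI3/VP1 genes the genotypes differed by at least 2-fold at 5 d and by at least 2-fold in the opposite direction at 0 d or at 10 d. Each value rests on 1 mean per group, and the change of direction was not tested. Such changes also occurred among all genes. Of the 357 genes past 2-fold towards Col-0 at 5 d, 36 were past it the other way in explants and 21 at 10 d. Of the 373 towards tanmei, 69 and 40 were. Counted likewise, without a Ct limit at the other time, 2 of 37 and 5 of 42 AP2/EREBP and ABI3/VP1 genes were so in explants. At 10 d, 2 of the 37 and 4 of the 42 were.

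Of these, 6 had the opposite direction in explants. ERF109, whose code is doubtful, was at -7.46 at 5 d and 1.79 at 0 d. The cytokinin response factor CRF3, also with a doubtful code, was at -1.69 and 1.001. ERF8, an EAR-motif repressor, was at -1.55 and 1.56, and RAP2.6 was at -1.36 and 1.52. Towards Col-0 at 5 d, DREB2C was at 2.31 after -1.79 in explants, and NGAL2 was at 1.39 after -2.55.

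The other 6 had the opposite direction at 10 d. The cold response factor CBF2 was at -1.25 at 5 d and 2.06 at 10 d, and SHN2, a cuticle factor, was at -1.18 and 2.71. LEP, with a doubtful code, was at -1.09 and 1.31, and CRF12, with an unchecked code, was at -1.09 and 1.28. AT1G19210 was at 1.04 at 5 d and -2.32 at 10 d, and ERF088 was at 1.20 and -1.50, both with matched codes. With a single median over all plates, AT1G19210 (0.56), ERF088 (0.72) and NGAL2 (0.91) were under 2-fold at 5 d.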

How the results depend on the processing

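Under 9 alternatives the counts of genes 2-fold higher in either genotype stayed within 1.5 times of 357 and 373, ranging from 257 to 408 in Col-0 and from 270 to 419 in tanmei. The 10-fold counts of 84 and 55 moved by more under the stricter filters. With a Ct below 30 in at least 1 culture they were 53 in Col-0 and 30 in tanmei, and with a Ct below 35 in both they were 54 and 29, since these settings keep 1332 and 1525 genes. With every Ct above 35 set to 35, the count in tanmei was 34 and that in Col-0 was 65. Over all genes, the count for Col-0 exceeded that for tanmei at 10-fold under each of the 9 alternatives. Within AP2/EREBP and ABI3/VP1 it did not with a single median over all plates (7 and 14) or without centring (7 and 10).

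Of the 79 AP2/EREBP and ABI3/VP1 genes and the 5 group medians past 2-fold, none changed sign under any of the 9 alternatives that kept them. Of the 79 genes, 65 stayed past it in the same direction with a single median over all plates and 69 without centring. Without centring the median of all genes shifted by 0.19. The small medians of some groups did change sign with a single median over all plates, among them NGATHA (-0.20), euAP2 (-0.24) and the group of ERF022 (-0.02). The euAP2 group moved to 0.99 and the group of ERF022 to -0.94 with a Ct below 30 in at least 1 culture. With every Ct above 35 set to 35, the folds of 9 genes shrank by over 1.5 times, and 77 of the 79 genes stayed past 2-fold. ERF9 (-0.24) and SHN1 (-0.74) fell under 2-fold. ERF109 (-2.46), RAV3 (-2.21), DREB2H (-1.28), DDF2 (-3.97) and ERF14 (-2.44) were among those that shrank but stayed past it. No paired analysis was possible because there is 1 mean per group, and for the same reason no replicate could be left out. Expression near a Ct of 35 limits the values of weakly expressed genes.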
